A study of Mus musculus with 6 samples.

Results

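The 10 genes described here are immediate early genes of the mouse, Fosb, Fos, Fosl2, Junb, Jund, Egr1, Egr3, Arc, Homer1 and Nr4a1, as they appear in transcripts assembled from the nucleus accumbens (NAc), the ventral part of the striatum. They were chosen by name, and their rows were taken from the per-library event lists by gene identifier. An event is a transcript start, a transcript end or an alternative splicing form of an assembled gene, with its position. The lists named 8 of the 10 genes, with 48 events of 133207 in all, and Junb and Jund had none. The tissue was that of adult male mice of the C57BL/6N strain after conditioned place preference (CPP) training, which pairs injections with one side of a chamber. The morphine group was injected with morphine and saline in alternating sessions and the saline group with saline, and both went through the same place preference test. Each group had 3 libraries, called saline 1 to 3 and morphine 1 to 3. Per the study's methods the test took place on the day after the last conditioning session, so these animals had no injection shortly before the test. The collection time that the study states for the tissue falls within an hour after the test. The series description gives 6 mice for the 3 samples of a group, while the study's figure text treats each library as 1 mouse, and whether animals were pooled is not settled by these sources. No label says that the samples of a group are separate animals, so p-values measure only the spread between these samples.

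Immediate early genes are transcribed within minutes of neuronal activity, without the need for new protein. Fosb, Fos and Fosl2 encode Fos proteins that pair with Jun proteins such as JunB and JunD into the AP-1 transcription factor, Egr1 and Egr3 encode zinc finger transcription factors, and Nr4a1 encodes an orphan nuclear receptor. Arc and Homer1 act at the synapse, where Arc promotes the removal of AMPA receptors and the long Homer1 proteins tie glutamate receptors to the scaffold. In 2 of these genes the transcript form matters: a truncated protein, DeltaFosB, is made when an intron inside the last coding exon of Fosb is removed, and it is stable and accumulates in the NAc under repeated drug exposure. Homer1a, the activity-induced short form of Homer1, comes from a transcript that ends early and lacks the part that lets long forms join one another.

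The sequences on which these forms turn are given first, read from GENCODE M21 transcripts on GRCm38. The first 2 show the Fosb splice that separates FosB from DeltaFosB. The FosB transcript (Fosb-201) is shown over chr7:19304987-19305166 on the minus strand, with the 140 bases that DeltaFosB lacks in capitals, and the DeltaFosB junction (from Fosb-207) is shown with 24 bases on each side and its stop codon in capitals.
FosB, unspliced: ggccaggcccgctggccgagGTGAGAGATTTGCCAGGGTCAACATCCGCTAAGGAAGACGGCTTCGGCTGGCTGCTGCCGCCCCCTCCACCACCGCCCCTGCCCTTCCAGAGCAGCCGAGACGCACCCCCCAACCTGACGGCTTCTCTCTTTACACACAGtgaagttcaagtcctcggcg
DeltaFosB, spliced: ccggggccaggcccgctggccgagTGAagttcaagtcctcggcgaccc

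The removed stretch begins with gt and ends with ag, as most introns do. Its 140 bases leave a remainder of 2 when divided by 3, so the frame shifts at the junction, and the first codon after it is a stop. FosB (Fosb-201) has 338 codons and the annotated 5-exon DeltaFosB transcript (Fosb-206) has 237, which is 101 fewer. Another transcript with the same splice, Fosb-207, lacks one of the inner exons and is shorter still.

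The next set shows how Homer1 reading frames part after a shared exon on chromosome 13, plus strand. Each line begins with the last 20 bases of that exon, which ends at position 93356079. Capitals mark the 36-base cassette exon in the first line (chr13:93386345-93386380, in a long form) and the coding bases up to the stop codon in the other 3.
Homer1 long form with the cassette exon: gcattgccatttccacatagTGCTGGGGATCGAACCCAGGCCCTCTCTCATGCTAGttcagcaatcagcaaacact
Homer1 short form ending at the cassette exon: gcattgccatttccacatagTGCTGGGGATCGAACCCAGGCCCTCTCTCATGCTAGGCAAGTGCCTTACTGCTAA
Homer1 short form ending in an exon of its own: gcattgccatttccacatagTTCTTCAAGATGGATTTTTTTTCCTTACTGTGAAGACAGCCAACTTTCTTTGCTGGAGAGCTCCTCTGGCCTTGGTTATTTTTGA
Homer1a: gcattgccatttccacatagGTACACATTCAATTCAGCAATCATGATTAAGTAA

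The short form ending at the cassette exon uses the acceptor of that exon and reads on through its donor. The first 2 intron bases there are gc, while those after the shared exon, read from Homer1a, are gt. The long forms have 366 codons with the cassette exon and 354 without it, a difference of 12. The short frames run on for 34 coding bases after the shared exon in Homer1a, 55 in the form ending at the cassette exon and 85 in the form ending in an exon of its own, with the stop codon counted. Homer1a then has 186 codons.

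The lists of the 6 libraries held between 67535 (saline 2) and 80469 (morphine 1) entries over all genes, and the 10 genes supplied 35, 17 and 39 entries in saline 1 to 3 and 30, 26 and 30 in morphine 1 to 3. Relative sequencing depth, derived from the count and FPKM columns of the deposited lncRNA table, ran from 1.0 in saline 1 to 1.59 in morphine 2. The lists carry no expression level. A gene or event missing from a list was either not assembled there or assembled in a form that yields no listed event. A missing entry therefore does not show absence from the tissue. As these are bulk samples, a change in cell numbers and a change in RNA per cell cannot be told apart either. All 12 striatal projection neuron markers checked, among them Drd1, Drd2 and Ppp1r1b, were listed in all 6 libraries. So were the 4 markers of cortical excitatory neurons, the 3 each of oligodendrocytes, astrocytes and microglia and the 3 of ependymal cells, and how much of each cell type was present was not tested.

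Over the 10 genes the libraries listed 29, 17 and 32 events in saline 1 to 3 and 26, 23 and 26 in morphine 1 to 3. Saline held both the lowest and the highest library, and the groups overlapped. The mean was 26.0 ± 7.94 (SD, n = 3) in saline and 25.0 ± 1.73 (SD, n = 3) in morphine. This difference of -1.0 events was within the spread between libraries (two-sided exact permutation test, p = 1.0, where 3 against 3 allow no p below 0.1). Per 10000 events of the library the values were 4.98, 3.11 and 5.59 in saline and 4.17, 3.80 and 4.56 in morphine (two-sided exact permutation test, p = 0.7). The direction of the event difference rested on single libraries, since it was 0.5 events without saline 1 and 2.0 without saline 3.

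By kind of event, transcript starts and ends numbered 23, 17 and 25 in saline and 22, 20 and 20 in morphine. Exon skipping gave 3, 0 and 1 in saline against 1, 3 and 2 in morphine. Retained-intron events numbered 3, 0 and 4 against 3, 0 and 2, and alternative exon ends 0, 0 and 2 against 0, 0 and 2. Exact and approximate forms of the same position counted as separate events, as did both alternatives of an exon end, so events outnumbered sites. The retained-intron events of morphine 3 were both forms of the same Homer1 intron. In none of these 4 families did the groups separate, with adjusted p = 1.0 for each (two-sided exact permutation test, Benjamini-Hochberg over the families). Of the 48 events, 13 (27.1%) were in all 6 libraries and 19 (39.6%) in a single one, beside 20.5% and 50.6% over the events of all genes. All 13 were starts or ends. None of the 9 retained-intron events of the 10 genes was in all 6 libraries, as was true of most such events in other genes, where 1.70% were.

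No event of the 10 genes marked a whole group, that is, all 3 libraries of one treatment and 0 of the other. Over all genes 0.66% of events were, 0.382% in morphine and 0.278% in saline. With exactly 2 libraries of a group and none of the other, the 10 genes held 1 event in the morphine direction, a Fosb end, and 1 in the saline direction, a retained intron of Nr4a1. The shares over all events were 2.84% and 2.24%, so neither count stood out from its background. The plot of presence by library shows the 48 events.

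**Figure D1:**
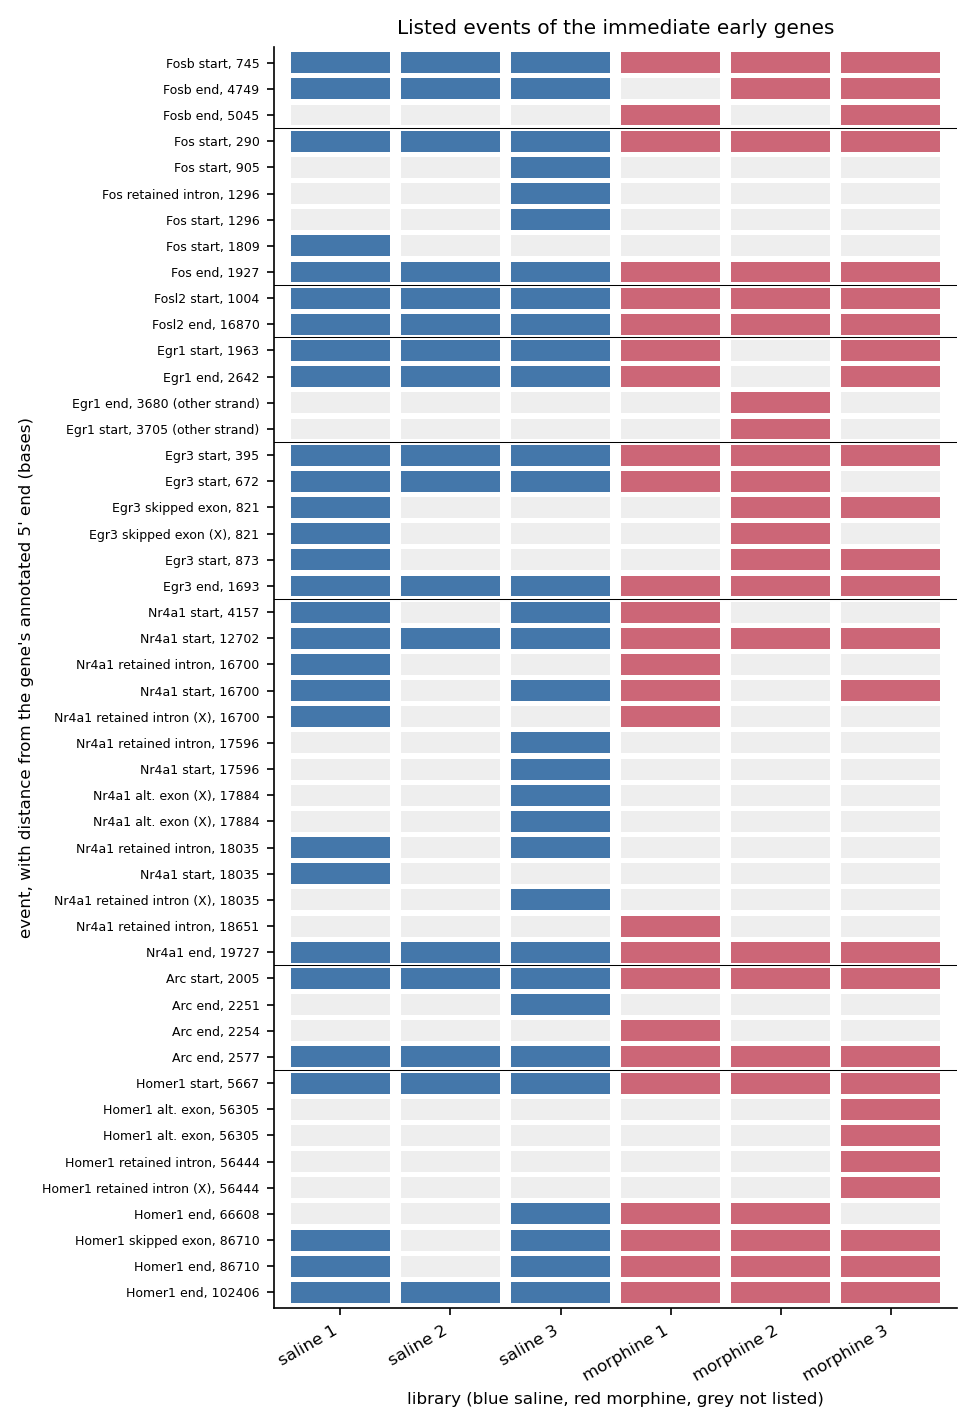
Each row is 1 event of the 8 listed genes, named by kind and by its distance in bases from the gene's annotated 5′ end, and each column is a library (blue saline, red morphine, grey not listed; X marks the approximate form of a class). The 13 rows filled in all 6 libraries are starts and ends, and no row is filled for the whole of 1 group alone.

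Event numbers per gene did not separate the groups for any of the 8 listed genes, while over all 16154 listed genes 2.77% had numbers that did not overlap, 1.81% being higher in every morphine library and 0.966% lower. The gene furthest towards morphine was Homer1, with 4, 2 and 5 events in saline and 5, 5 and 8 in morphine. The gene furthest towards saline was Nr4a1, with 8, 2 and 10 in saline and 7, 2 and 3 in morphine. Both pairs of groups overlapped. Some events described the same site. In morphine 3, the alternative exon ends and the retained-intron events of Homer1 all described the same extended exon and its alternative. In Nr4a1, intron 2 in saline 1 and morphine 1, and intron 4 in saline 3, counted in both exact and approximate form. The alternative exon ends of Nr4a1 in saline 3 described that same intron 4, as the exon before it and that exon extended across it. The Homer1 difference was 2.33 events (two-sided exact permutation test, p = 0.3) and that of Nr4a1 was -2.67 events (two-sided exact permutation test, p = 0.5). After Benjamini-Hochberg adjustment over all genes listed, every one of the 8 genes had adjusted p = 1.0 in the exact permutation test, and so had the lowest of all 16154 genes, since no unadjusted p can fall below 0.1.

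**Figure D2:**
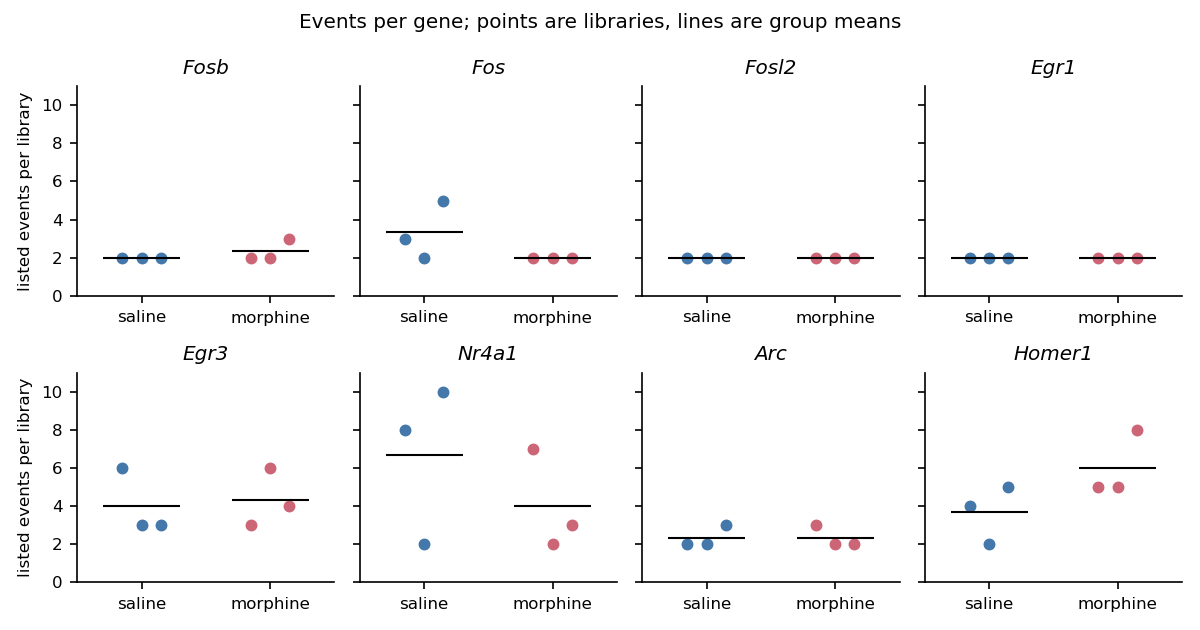
The number of listed events per library (vertical axis) is plotted for each of the 8 listed genes, with 1 point per library (blue saline, red morphine) and a line at the group mean. Points of both groups overlap in every panel, and the widest spread is in Nr4a1, from 2 to 10.

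Fosb (ENSMUSG00000003545, chr7:19302696-19310051, minus strand) had 2, 2 and 2 events in saline and 2, 2 and 3 in morphine. All 6 libraries listed 1 start, an exon whose splice side is position 19309306 and whose outer end, 19310045, is the RefSeq start. The ends were of 2 kinds. The last exon with its acceptor at 19305302, which holds the 140 bases shown above unspliced and is the FosB form, was listed in saline 1, 2 and 3 and in morphine 2 and 3. The last exon with its acceptor at 19305006, the first base after the removed stretch, was listed in morphine 1 and morphine 3 and in no saline library.

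Thus morphine 1 listed the DeltaFosB end alone, morphine 3 listed both, and the other 4 libraries listed the FosB end alone. Of the 32206 transcript ends over all genes, 1.98% were likewise in exactly 2 morphine libraries and no saline library, and 1.74% in exactly 2 saline libraries and no morphine library. The DeltaFosB end of morphine 1 carried a 0 in the score column of the list. The list gives the acceptor of a last exon and not the donor spliced to it, so the join to the DeltaFosB donor was not seen directly. Both annotated transcripts with this acceptor, Fosb-206 and Fosb-207, carry the splice shown above. No library listed the 140-base stretch as a retained intron, including morphine 3, where both ends were listed, and none lay within 10 bases of it. The 3 introns of Fosb-201, which do not include this stretch, lay inside no listed exon in any library. Apart from its last exon, Fosb was thus assembled without listed variation.

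**Figure D3:**
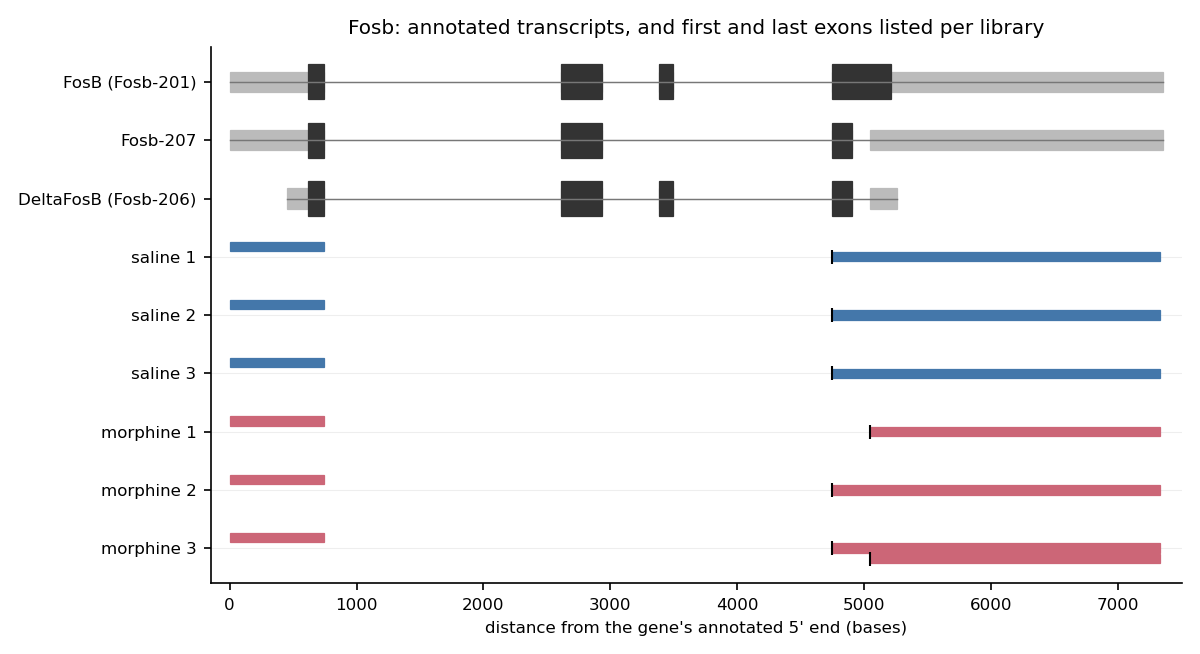
Annotated Fosb transcripts (dark, coding; light, untranslated) are drawn above the first and last exons listed in each library, along the distance in bases from the annotated 5′ end; black ticks mark the acceptor of a last exon. The later acceptor appears in morphine 1 and morphine 3, and the earlier one is missing in morphine 1 alone.

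The Fosb promoter, the 250 bases before and 50 after the RefSeq start on GRCm38.p6, held a cAMP response element variant and an EGR site close to each other. These are the letters that the transcription factors CREB and EGR are known to bind, and the 40 bases holding both are chr7:19310076-19310115 on the minus strand, with both motifs in capitals.
Fosb promoter, -70 to -31: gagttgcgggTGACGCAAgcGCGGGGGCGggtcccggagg

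The variant, TGACGCAA, lay at -60 to -53 and the EGR site, GCGGGGGCG, at -50 to -42, with the start counted as 0. Searched on both strands, they were in 0.490% and 2.91% of 32851 RefSeq promoters. Of the 10 genes, 7 had a promoter in the RefSeq table, with 2 windows for Homer1, and Egr1, Egr3 and Arc had none. An EGR site was also found in Fosl2, at -79 to -71, and in Nr4a1 on the opposite strand, at -60 to -52. The TATA box TATAAA, present in 13.6% of promoters, was found in Fos, at -33 to -28, and in Junb, at 0 to 5. For Junb the RefSeq start, 84978748, lies upstream of the GENCODE start, 84978718, so this offset depends on the annotation. The full cAMP response element TGACGTCA (1.79% of promoters), the AP-1 site TGACTCA (5.20%) and the CArG box (1.63%) were in none of the 8 windows, nor did the windows of Jund and Homer1 hold any of the 6 motifs. Neither Homer1 window held position 93304799, where the start exon listed in all 6 libraries begins. The Jund window ended at 70697788, before the GENCODE start of the gene at 70698949. Sequence outside the windows was not searched. The motif hits are matches of letters, and no factor binding was measured.

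Fos (ENSMUSG00000021250, chr12:85473890-85477273, plus strand), whose protein is the most used marker of recent neuronal activity, had 3, 2 and 5 events in saline and 2, 2 and 2 in morphine. The difference was -1.33 events (two-sided exact permutation test, p = 0.4). A start with its donor at 85474180 and an end with its acceptor at 85475817 were in all 6 libraries, and the 3 morphine libraries and saline 2 listed nothing else. Saline 3 listed 2 further starts, with donors at 85474795 (annotated in Fos-204) and at 85475186 (annotated in Fos-202), and retention of intron 2 (85475187 to 85475591, 405 bases). Saline 1 listed a single start exon from 85473890 to 85475699, which takes in introns 1 and 2. Both introns therefore lay inside a listed exon in saline 1 and saline 3, and in no morphine library. The third intron, of 117 bases, lay inside no listed exon.

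Fosl2 (ENSMUSG00000029135, chr5:32135801-32157842, plus strand), which encodes Fra-2, a Fos protein without the strong activation domain of FosB, had the same 2 events in all 6 libraries. They were a start at donor 32136805 and an end at acceptor 32152671. Of the 8 listed genes it was the single one with identical events throughout.

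Junb (ENSMUSG00000052837, chr8:84974484-84978718, minus strand) and Jund (ENSMUSG00000071076, chr8:70698949-70700616, plus strand), the Jun partners in AP-1, were listed in none of the 6 libraries. Their coding transcripts have 1 exon. An event list built on exon joins names few such genes: of 1331 single-exon protein-coding genes in GENCODE M21, 134 (10.1%) were listed in any library, beside 15770 of 20620 multi-exon genes (76.5%). Within the span of Junb the lists held 1 entry per library, of the neighbouring gene Prdx2 on the other strand, and within Jund 2 entries per library of Gm11175 on the other strand. The data therefore give no value for either gene.

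Egr1 (ENSMUSG00000038418, chr18:34859823-34864984, plus strand), a zinc finger factor induced with Fos, had 2 events in every library. In saline 1, 2 and 3 and in morphine 1 and 3 these were the start with donor 34861786 and the end with acceptor 34862465, the 2 sides of its intron. Morphine 2 listed neither. It listed a start exon from 34863528 to 34863676 and an end exon from 34863404 to 34863503 on the minus strand, opposite to the gene and inside its last coding exon. Both entries carried a 0 in the score column of the list, and no other library listed a minus-strand event under Egr1. Morphine 2 was the deepest of the 6 libraries by the relative depth above, and the part of depth in these entries was not tested.

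Egr3 (ENSMUSG00000033730, chr14:70077203-70082614, plus strand), a relative of Egr1 that neurons also induce with activity, had 6, 3 and 3 events in saline and 3, 6 and 4 in morphine. The difference was 0.333 events (two-sided exact permutation test, p = 1.0), and it turned negative without saline 2 (-0.167), saline 3 (-0.167) or morphine 2 (-0.5). A start at donor 70077598 and an end at acceptor 70078896 were in all 6 libraries. A second start at donor 70077875, the donor of another annotated Egr3 transcript, was in 5 libraries and missing in morphine 3.

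The variable piece of Egr3 was a 53-base exon, 70078024 to 70078076. Saline 1, morphine 2 and morphine 3 listed it as skipped, and the same 3 libraries listed a start exon that ended at its donor and ran across intron 1. This exon holds the start codon of the 3-exon transcript (349 codons), and the 2-exon transcript without it begins its frame in the first exon and has 387 codons, 38 more. Its coding part, chr14:70078037-70078076, is shown because it is what the skipped form loses, with the start codon in capitals.
Egr3 cassette exon, coding part: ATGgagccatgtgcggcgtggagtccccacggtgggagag

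Since a skipping event is listed when a library holds both forms, the other 3 libraries do not show which form they lacked.

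Arc (ENSMUSG00000022602, chr15:74669083-74672570, minus strand) had 2, 2 and 3 events in saline and 3, 2 and 2 in morphine (two-sided exact permutation test, p = 1.0). A start at 74670565 and an end with its acceptor at 74669993 were in all 6 libraries. Saline 3 also listed an end exon reaching to 74670319, and morphine 1 one reaching to 74670316. Both took in intron 2, 186 bases in the 3′ untranslated region, so each group had 1 library with an Arc end that kept this intron. Arc mRNA is known to be carried into dendrites and to have its introns downstream of the coding region.

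Homer1 (ENSMUSG00000007617, chr13:93299635-93405129, plus strand) had the most annotated transcripts of the 10 genes, 12 in GENCODE M21. A start at donor 93305302 and the end of the long forms, at acceptor 93402041, were in all 6 libraries. The early end at acceptor 93386345, that of the form ending at the cassette exon, was in saline 1 and 3 and in morphine 1, 2 and 3. Skipping of the 36-base cassette exon was listed in the same 5 libraries. The early end at acceptor 93366243, that of the form ending in an exon of its own, was in saline 3, morphine 1 and morphine 2. Saline 2 listed the long start and end alone.

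The Homer1a end, whose last exon starts at acceptor 93355940 and runs past position 93356079 into the intron, was in none of the 6 lists. A form with that exon extended was listed in morphine 3 alone, where an exon from 93355940 to 93386380 (30441 bases) stood as the alternative to the exon from 93355940 to 93356079 (140 bases). It was listed as both an alternative exon end and a retained intron of 30265 bases. This extended exon runs to the donor of the cassette exon and does not end where Homer1a does.

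**Figure D4:**
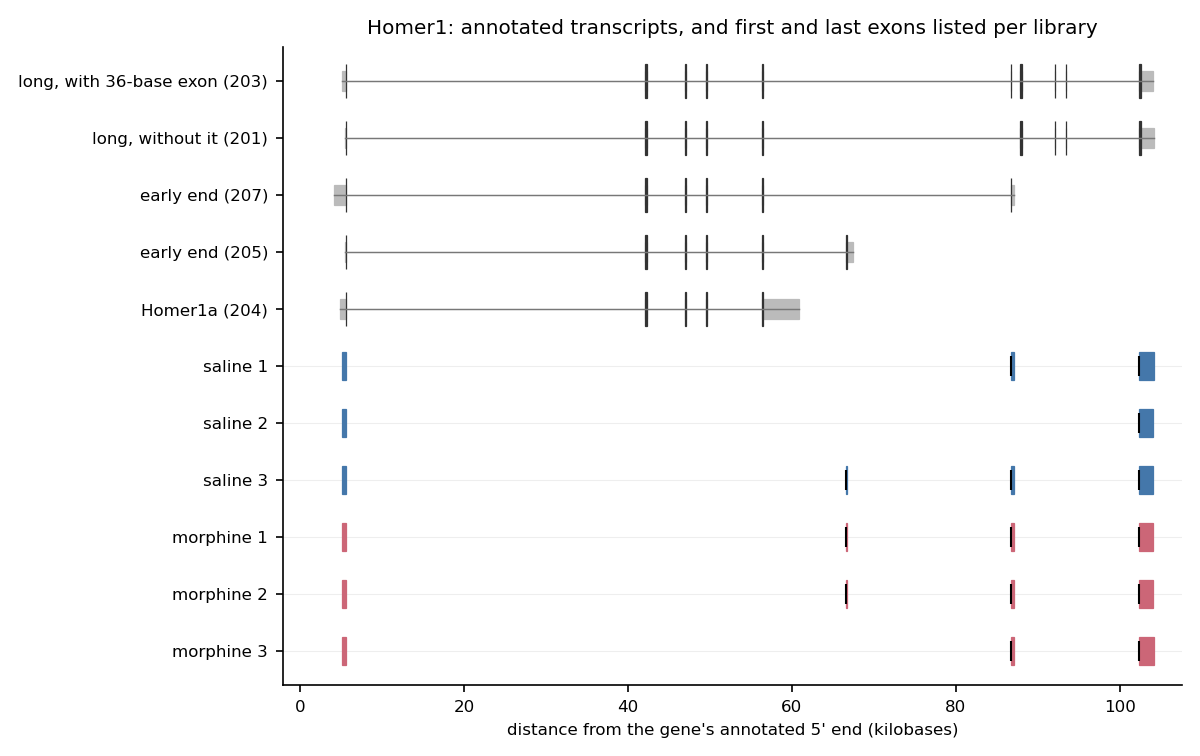
Annotated Homer1 transcripts (dark, coding; light, untranslated) are drawn above the first and last exons listed in each library, along the distance in kilobases from the annotated 5′ end; black ticks mark the acceptor of a last exon. The early ends near 67 and 87 kilobases are listed in 3 and 5 libraries, and no library has an exon at the Homer1a end.

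Nr4a1 (ENSMUSG00000023034, chr15:101254269-101274795, plus strand) was the most variable of the genes, with 14 events of which 7 were in a single library. A start at donor 101266971 and an end at acceptor 101273996 were in all 6 libraries, and saline 2 and morphine 2 listed nothing else. An upstream start at donor 101258426 was in saline 1, saline 3 and morphine 1. A start exon that ran across intron 1 to 101270969 was in saline 1, saline 3, morphine 1 and morphine 3. Longer start exons reached 101271865 in saline 3 and 101272304 in saline 1.

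Retained introns of Nr4a1 fell at 4 places. Intron 2 (766 bases) was listed in saline 1 and morphine 1, intron 3 (287 bases) in saline 3, intron 4 (413 bases) in saline 1 and saline 3, and intron 5 (94 bases) in morphine 1. Introns 1 and 6 were not listed as retained in any library, although the longer start exons ran across intron 1. Counting every intron of Nr4a1 that lay inside a listed exon gave 4, 0 and 4 of 6 in saline and 3, 0 and 1 in morphine. The high libraries were saline 1, saline 3 and morphine 1, so the split did not follow the groups.

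The same count was made over all genes listed, with the introns of each gene's first-numbered transcript in the annotation. Of 28 introns in the 8 listed genes, 7, 0 and 7 lay inside a listed exon in saline and 4, 1 and 2 in morphine. The means were 4.67 ± 4.04 (SD, n = 3) and 2.33 ± 1.53 (SD, n = 3), a difference of -2.33 introns that was within the spread between libraries (two-sided exact permutation test, p = 0.4). The 9 introns concerned, of up to 3111 bases, belonged to Nr4a1, Fos, Arc and Egr3. Fosb, Fosl2, Egr1 and Homer1 had none among the introns of these transcripts. The 140-base stretch of Fosb is not an intron of its first-numbered transcript, and so was not counted, although the listed FosB last exon holds it. Nor was the 30265-base Homer1 intron listed as retained in morphine 3. Of the 28, 4 were in exactly 2 saline and no morphine library, and 0 were in exactly 2 morphine and no saline library. Over 159650 introns of all genes these shares were 0.395% and 0.648%. The 4 were introns 1 and 2 of Fos and introns 3 and 4 of Nr4a1, all from saline 1 and saline 3. In saline 1 a single start exon took in both Fos introns, so the 4 were not separate observations. None of the 28 marked a whole group, beside 0.0457% of all introns for saline and 0.0921% for morphine.

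As intron length differs between genes, introns of at most 1000 bases were also counted alone. In the 8 genes 42.9%, 0.0% and 42.9% of 14 such introns were inside a listed exon in saline 1 to 3, and 21.4%, 7.69% and 7.14% in morphine 1 to 3 (of 13 in morphine 2, where Egr1 was listed on the other strand). Over all genes the values were 8.27%, 5.90% and 6.05% in saline and 9.43%, 7.11% and 6.40% in morphine. The share in the 8 genes was thus above that of all genes in saline 1, saline 3 and morphine 1, below it in saline 2, and rested on 1 intron in each of morphine 2 and morphine 3. Saline 1 and morphine 1 were also the 2 highest libraries over all genes, whereas saline 3 was not.

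**Figure D5:**
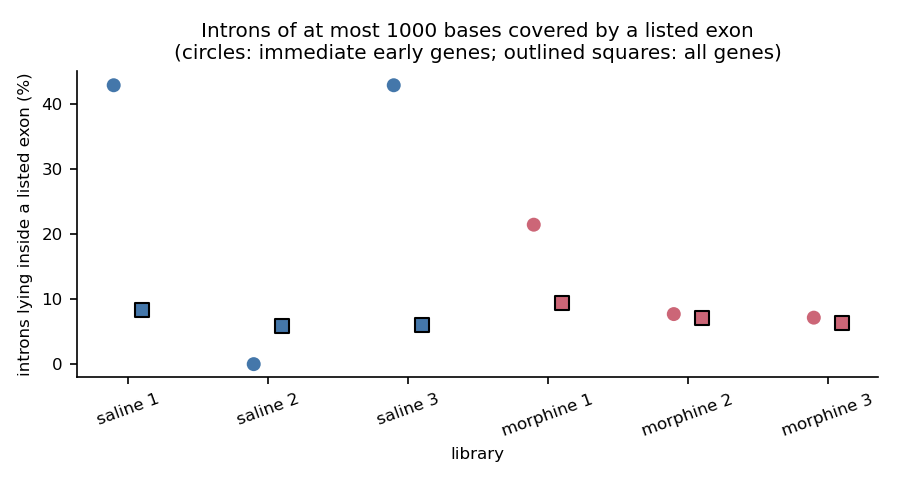
The share of introns of at most 1000 bases that lie inside a listed exon (vertical axis, percent) is shown for each library, with filled circles for the immediate early genes and outlined squares for all genes (blue saline, red morphine). The circles reach 42.9% in saline 1 and saline 3 and 0.0% in saline 2, while the squares stay between 5.90% and 9.43%.

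A further 24 immediate early genes were followed beside these. In every library 20 of them were listed, 19 being in all 6. Jun, Ier2 and Ier5, all single-exon genes like Junb and Jund, were in none. Fosl1, the Fos gene coding for Fra-1, was listed in morphine 1 alone, and Atf3 in all but morphine 1. The 24 genes had 87, 68 and 78 events in saline and 66, 79 and 83 in morphine, a difference of -1.67 events (two-sided exact permutation test, p = 0.8), and event numbers overlapped between the groups for every gene of the list. Those with event numbers closest to Fosb were Egr2, Egr4, Dusp1, Btg2, Nptx2 and Rheb, 6 genes tied at a summed difference of 1 event over the 6 libraries.

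Over the listed genes of these 24, 14, 7 and 15 of 113 introns lay inside a listed exon in saline (12.4%, 6.19% and 13.3%) and 8, 9 and 15 in morphine (7.08%, 7.96% and 13.3%), and the groups overlapped. Npas4, an activity-specific factor of neurons, varied most between libraries of 1 group, with 10, 5 and 7 events in saline and 4, 16 and 3 in morphine. Of its 7 introns, 6, 3 and 7 lay inside a listed exon in saline and 3, 6 and 6 in morphine, so unlike Fos it had such introns in every library. The clock gene Per1 had 7, 2 and 2 of 22 introns inside a listed exon in saline and 1, 0 and 5 in morphine. Srf, which encodes the serum response factor, had 1, 2 and 0 of 6 in saline and 2, 3 and 3 in morphine, where saline 2 and morphine 1 were level. Crem, which encodes the activator CREM and its repressor ICER from separate starts, had the most events of the list, 19, 15 and 15 in saline and 14, 14 and 15 in morphine, and none of its 8 introns was inside a listed exon in any library.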

How the data were processed

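The authors sequenced total RNA of the NAc in 3 libraries per treatment, 6 in all, and treatment labels gave the groups. Replicate numbers follow accession order and are names only. Per the study's methods, strand-specific reads were mapped with HISAT2 and assembled with StringTie, and the genome build was not given in the sources used here. The event lists of single libraries, in the layout of ASprofile, were deposited by the authors with a column named FPKM that holds whole numbers at or below 0, here treated as a score and not used as a level. Of the 177 entries of the 10 genes, 128 had the score -1 and 5 (2.82%) the score 0, namely the DeltaFosB end of morphine 1, the additional Arc ends and the minus-strand Egr1 start and end of morphine 2, beside 3.42% at 0 over all genes. The count and FPKM values deposited by the authors for lncRNAs served only for relative depth, over 91 values with at least 10 counts. The log2 fold changes and adjusted p-values in that deposited table are the authors' own comparison and were not used. The number of per-sample columns left unused was 0.

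The 20 event types of the lists make up 12 classes in 4 families, with included and skipped entries joined. An event was identified by class, gene, strand and exon or intron position, and starts and ends by their splice side. Exact and approximate classes at the same position were therefore counted separately. Groups were compared on numbers per library by exact permutation, two-sided, over all 20 assignments of 3 against 3, adjusted by Benjamini-Hochberg over all genes listed, in Python 3.11.15 with numpy 2.4.6, pandas 2.3.3 and scipy 1.17.1. The test was checked on simulated data. Gene models are GENCODE M21 on GRCm38, in which between 99.29% and 99.47% of entries of a library had their gene, and motifs were searched in RefSeq promoters on GRCm38.p6. All 10 genes are named, and genes of the further list by their number of libraries, with the 3 closest to Fosb in event number, where 6 tied. Npas4, Per1, Srf and Crem were chosen for mention after their values were seen. The 10 genes and the lists were chosen with earlier results of these data known. Alternatives were other event identities, entries in place of events, strand, scaling and leaving out each library, and leaving out libraries for introns inside a listed exon was added after seeing the data.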

Additional observations from a re-analysis of the deposited data

How the results depend on the processing

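No paired analysis was possible because the labels give the groups no shared replicate numbers. None of 111 alternatives gave a p below 0.05, but counts carried no p and these group sizes allow no exact permutation p below 0.1. Of the 79 for results that differed from 0, 68 kept the sign, 8 reversed it and 3 fell to 0. Those 3 were the total without morphine 2, exon skipping without saline 2 and Fosb without morphine 3. The 68 include plain counts, of Homer1 ends and of genes of the further list, which cannot change sign. The other 32 alternatives belong to results at 0, of which 13 moved to one side or the other, with Arc between -0.333 and 0.333. Asking for at least 2 libraries of one treatment and 0 of the other gave 2 events, in place of 0 when all 3 were asked for. Leaving out each library in turn moved the morphine minus saline difference over the 10 genes between -5.5 and 2.0 events. It moved starts and ends between -3.33 and 0.667, retained introns between -1.83 and 0.167, exon skipping between 0.0 and 1.5 and alternative exon ends between -0.667 and 0.667. Retained introns turned positive without saline 3 or morphine 2, and starts and ends without saline 3. Differences for single genes ran from -0.5 to 1.33 in Egr3 (-0.167 without saline 2 or saline 3), from 1.33 to 3.0 in Homer1, from -5.0 to -1.0 in Nr4a1 and from -2.0 to -0.5 in Fos. Introns inside a listed exon ranged from -4.67 to -1.17. Genes of the further list in all libraries numbered 19 to 20. With outer coordinates as identity Homer1 had 4 ends in place of 3. With 3 libraries per group, no difference of any size could reach a p below 0.05 in the exact permutation test. The lists hold no levels, and a missing event may be a matter of depth or assembly.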
